A study of Bos taurus with 31 samples.

Results

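Protein kinase A is the main receptor of cyclic AMP (cAMP) in the liver cell. Glucagon and adrenaline raise cAMP through receptors coupled to adenylyl cyclases, cAMP binds the regulatory subunits of the kinase, and the freed catalytic subunits phosphorylate enzymes of glycogen and glucose metabolism and the transcription factor CREB1. Protein kinase inhibitor peptides, encoded by *PKIA*, *PKIB* and *PKIG*, bind and block free catalytic subunits. The 10 genes described here are these 3 inhibitors, the catalytic subunit genes *PRKACA* and *PRKACB*, the regulatory subunit genes *PRKAR1A*, *PRKAR1B*, *PRKAR2A* and *PRKAR2B*, and *CREB1*. They were picked by symbol from 24616 genes in the count matrix; all 10 were found, and all 10 passed the minimum of 20 reads in total over the cows, as did 15916 genes. *PKIB* drew attention to the family because of its difference between GLYHC and GLYLC, so its values in comparisons that hold GLY cows are given as a description and without a test. A higher level in HC over all cows, the CON cows included, was known then too, so its test in CON cows is also a description.

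Liver was sampled by puncture biopsy in week 16 from 31 lactating German Holstein cows, with 1 RNA library per cow. CONHC (n = 8) and CONLC (n = 8) cows received control diets. GLYHC (n = 8) and GLYLC (n = 7) cows received diets whose peas, wheat and straw carried residues of a glyphosate formulation; the samples of 1 further GLYLC cow were lost. The ration of HC cows held 60% and that of LC cows 30% concentrate, called the concentrate feed proportion (CFP). Libraries held 11675775 to 36675542 reads assigned to genes (median 19781078). All 7 hepatocyte markers were read in every cow and summed to between 63847 and 193304 CPM (reads relative to library size, scaled by the TMM method). Libraries that stood apart were 4 with strong skeletal muscle transcripts (CONHC cow 123, CONLC cows 103 and 166, GLYHC cow 127) and GLYLC cow 912, whose 6 intestinal epithelium markers summed to 404.3 CPM against at most 104.9 CPM in any other cow. In these tissue samples, a change in the number of cells of a type and a change in RNA per cell cannot be told apart. No transcript lengths were used, so the levels of different genes are not ranked against each other.

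*PKIB* (ENSBTAG00000004394), which encodes the beta inhibitor peptide, had a higher mean level in HC than in LC cows on control diets, with overlapping cows. In CONHC its level was 3.82 ± 0.87 CPM (SD, n = 8; lowest 2.61, median 3.95, highest 5.06), and in CONLC it was 2.51 ± 1.21 CPM (SD, n = 8; lowest 1.19, median 2.19, highest 4.95). All 8 CONHC cows lay above the CONLC median, but the groups overlapped: CONLC cow 260 reached nearly the level of the highest CONHC cow. On the log2 CPM scale the CON groups differed by 0.68, with p = 0.01772 in a two-sided exact permutation test over all 12870 assignments of 8 against 8 cows. A higher *PKIB* level in HC over all cows, these included, was known when the gene was chosen, so this p is a description of the CON cows and not independent support. In the fit across all genes the log2 fold change was 0.60 (95% interval 0.11 to 1.08), with adjusted p = 0.750, so *PKIB* was not called there (a call required an unadjusted p under 0.05 and an adjusted p under 0.1). No gene was called between CONHC and CONLC (0% of 15916), and 5.96% of genes had an unadjusted p under 0.05. Without the 4 cows with strong muscle transcripts, 3 of which were in the CON groups, the difference was 0.63 on the log2 CPM scale and the exact permutation p was 0.0565.

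In the GLY groups *PKIB* was 4.46 ± 1.42 CPM in GLYHC (SD, n = 8; lowest 1.63, median 4.60, highest 6.19) and 2.22 ± 0.38 CPM in GLYLC (SD, n = 7; lowest 1.44, median 2.26, highest 2.71). Of the 8 GLYHC cows, 7 lay above the highest GLYLC cow, and GLYHC cow 37 lay below the GLYLC median. This comparison chose the gene. In the fit used here 0.201% of all genes were called in it, and *PKIB* lay just outside the call limit. It was called for HC against LC over all cows, as were 1.45% of all genes. Without the 4 cows with strong muscle transcripts it was not called there. These comparisons hold the cows that chose the gene, so these outcomes are a description and no test of it. The order of the group means was GLYHC, CONHC, CONLC, GLYLC. Neighbours in that order on the same CFP were close: the log2 fold change was 0.21 (standard error, SE, 0.23) for GLYHC against CONHC and −0.18 (SE 0.25) for GLYLC against CONLC, both within the spread of the cows. The log2 fold change with CFP was larger by 0.39 (SE 0.34, 95% interval −0.30 to 1.09) in GLY than in CON cows. Without CONLC cow 260 that difference was 0.16, and the log2 fold change of GLYLC against CONLC was 0.06. *PKIB* was read at low depth, with 27 to 168 reads per cow.

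**Figure D1:**
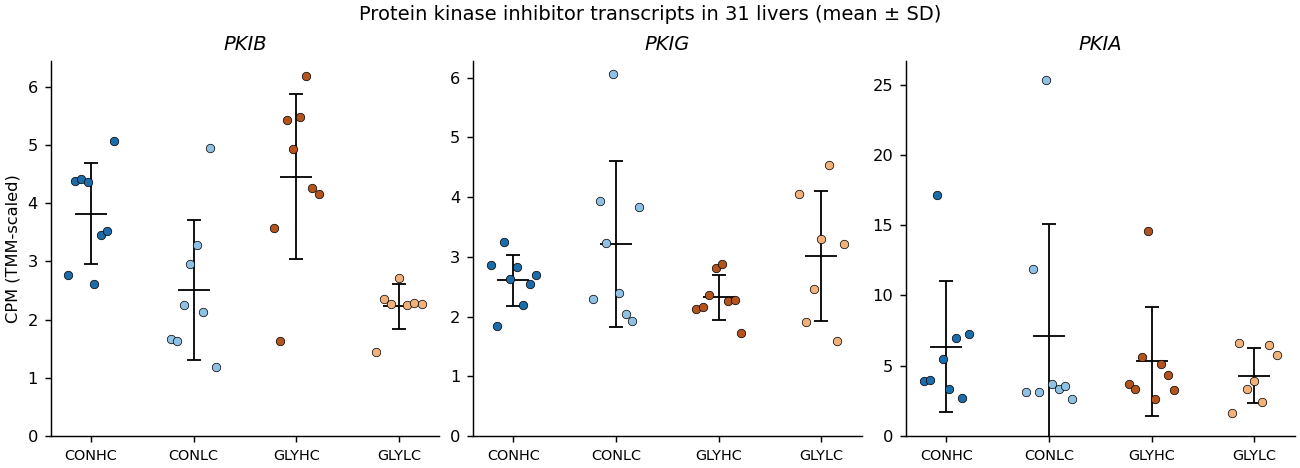
TMM-scaled CPM of *PKIB*, *PKIG* and *PKIA* in each of 31 cows (points) by feeding group, with the mean (horizontal line) and SD (error bars). *PKIB* points of HC groups lie mostly above those of LC groups, whereas 4 single cows carry the high *PKIA* values of 11.9 to 25.4 CPM.

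*PKIG*, the gamma inhibitor, was 2.61 ± 0.43 CPM in CONHC (SD, n = 8; 1.85 to 3.25) and 3.21 ± 1.39 CPM in CONLC (SD, n = 8; 1.93 to 6.06). It was 2.33 ± 0.38 CPM in GLYHC (SD, n = 8; 1.72 to 2.88) and 3.01 ± 1.09 CPM in GLYLC (SD, n = 7; 1.60 to 4.54). Both LC groups held cows above every HC cow of the same diet, and the groups overlapped. The log2 fold change of HC against LC was −0.30 (95% interval −0.74 to 0.13) in CON cows and −0.37 (95% interval −0.82 to 0.07) in GLY cows. The CON value was −0.10 without CONLC cow 166, which had the highest *PKIG* level and strong muscle transcripts, and −0.06 (SE 0.21) without the 4 muscle-rich cows. Over all cows, in an additive model of both diet factors, it was −0.34 (95% interval −0.64 to −0.03; unadjusted p = 0.0311, adjusted p = 0.300), which was no call.

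*PKIA*, the alpha inhibitor and the form abundant in muscle, varied most among the 10 genes within groups. Its group means were 6.36 ± 4.67 CPM in CONHC (SD, n = 8), 7.08 ± 7.99 in CONLC (SD, n = 8), 5.33 ± 3.88 in GLYHC (SD, n = 8) and 4.30 ± 1.98 in GLYLC (SD, n = 7). The range ran from 1.64 CPM in GLYLC cow 42 to 25.4 CPM in CONLC cow 166. The 4 highest cows were the 4 with strong skeletal muscle transcripts: 15 muscle markers, a list written after the data were seen, summed to 28.9 to 55.4 times the median of all cows in them and to at most 9.50 times in the other 27. *PKIA* was 11.9 to 25.4 CPM (median 15.9) in those 4 cows and 1.64 to 7.26 CPM (median 3.68) in the other 27. The cows shared between high *PKIA* and high muscle markers were 1 CONHC, 2 CONLC and 1 GLYHC cow, with none in GLYLC, and 10 of the 15 muscle markers were read in every cow. Leaving these cows out moved the *PKIA* log2 fold change of GLYLC against CONLC from −0.73 (SE 0.48) to 0.41 (SE 0.27; adjusted p = 0.942), and its difference between diets in the CFP effect from 0.48 to −0.70; none of these values was a call. The CON log2 fold change with CFP was −0.16 (SE 0.46), and 0.52 without CONLC cow 166 alone. Without the 4 muscle-rich cows it was 0.58 (SE 0.27, adjusted p = 0.991), beside 0.53 (SE 0.27) for *PKIB* in the same cows.

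Of the reads on the 3 inhibitor genes, *PKIB* took a median of 31.7% in CONHC, 24.7% in CONLC, 39.8% in GLYHC and 22.2% in GLYLC cows. The ranges were 17.8 to 43.0%, 8.58 to 47.5%, 22.1 to 50.0% and 20.2 to 28.0%, and they overlapped. These shares move with *PKIA* and so with the muscle transcripts above.

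No other gene of the family was among those whose levels followed *PKIB* most closely from cow to cow. Among 11144 genes with a symbol and a mean of at least 1 CPM, the highest Pearson correlations of log2 CPM with *PKIB* over the 31 cows were those of *CTSH*, a lysosomal cathepsin (r = 0.86), *EFHD2*, a calcium-binding protein (0.86), *CTSS*, the cathepsin that processes the invariant chain in antigen-presenting cells (0.85), *RELB*, a subunit of NF-kappaB (0.84), and *SRGN*, the proteoglycan of secretory granules in blood cells (0.82). With group means subtracted, which removes differences between the 4 groups, the leading genes were *RRAS* (0.82), *SRGN* (0.81), *SLA* (0.81), *EFHD2* (0.79) and *DRAM1* (0.79). These are descriptions over cows that share library, depth and tissue makeup. *CTSS* had a median of 104.8 CPM in CONHC (63.4 to 146.5), 64.9 in CONLC (51.7 to 117.1), 104.2 in GLYHC (60.9 to 141.6) and 64.0 in GLYLC (51.3 to 112.4). GLYHC cow 37, the lowest of its group for *PKIB*, was also the lowest of that group for *CTSH*, *EFHD2*, *CTSS*, *RELB* and *SRGN*. These genes were picked by their correlation with *PKIB* over the same cows, so the shared low cow is no separate finding.

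Cell type markers moved with *PKIB* to different extents. The summed level of 9 macrophage and Kupffer cell markers had r = 0.57 with *PKIB* over the 31 cows, ranging from 656.5 to 1438 CPM in CONHC, 713.6 to 1246 in CONLC, 724.8 to 1551 in GLYHC and 740.0 to 1259 in GLYLC. Of the 9, all were read in every cow, and 1 (*CD68*, a lysosomal macrophage marker) was called higher in HC than in LC over all cows, where 0.679% of all genes were called higher and 0.773% lower. The members were not alike: *CD14*, the endotoxin coreceptor, had r = −0.51 with *PKIB* and a log2 fold change of −0.18 in HC against LC over all cows, *MARCO*, a scavenger receptor, had −0.08, and the other 7 had positive values. Within groups the r of the summed macrophage markers was 0.49 in CONHC, 0.67 in CONLC, 0.71 in GLYHC and −0.09 in GLYLC. A list of 8 genes of activated antigen-presenting cells, written after the data were seen and holding *RELB* itself, had r = 0.76, with summed levels of 41.5 to 53.1 CPM in CONHC, 27.2 to 60.8 in CONLC, 34.0 to 73.7 in GLYHC and 31.6 to 47.3 in GLYLC. Within groups the r of this sum was 0.30 in CONHC, 0.76 in CONLC, 0.74 in GLYHC and 0.33 in GLYLC. The r of its single genes over all cows ran from −0.12 (*CD80*) to 0.84 (*RELB*). Of these 8, all read in every cow, 2 (*CD40* and *RELB*) were called higher. The 8 T and NK cell markers had r = 0.47, the 4 neutrophil markers r = 0.48 and the 5 dendritic cell markers r = 0.20, with no gene called in these lists. In HC against LC, 0 of the 8 T and NK cell markers were higher in CON cows and 8 were higher in GLY cows. Their log2 fold changes ran from −0.39 (*GZMA*) to −0.003 (*CD3E*) in CON cows and from 0.33 (*CD3G*) to 0.76 (*GZMA*) in GLY cows. At an unadjusted p under 0.05 there were 0 in CON cows (beside 5.96% of all genes) and 1 in GLY cows (beside 12.5%). Against these lists, 7 stellate cell and fibroblast markers had r = −0.52, with 1 (*DCN*) called lower. The 7 hepatocyte markers had r = −0.07 over all cows, but −0.44 within CONHC, −0.38 within CONLC, −0.91 within GLYHC and 0.09 within GLYLC, each over 7 or 8 cows. The part of these cell types in the *PKIB* difference was not tested.

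**Figure D2:**
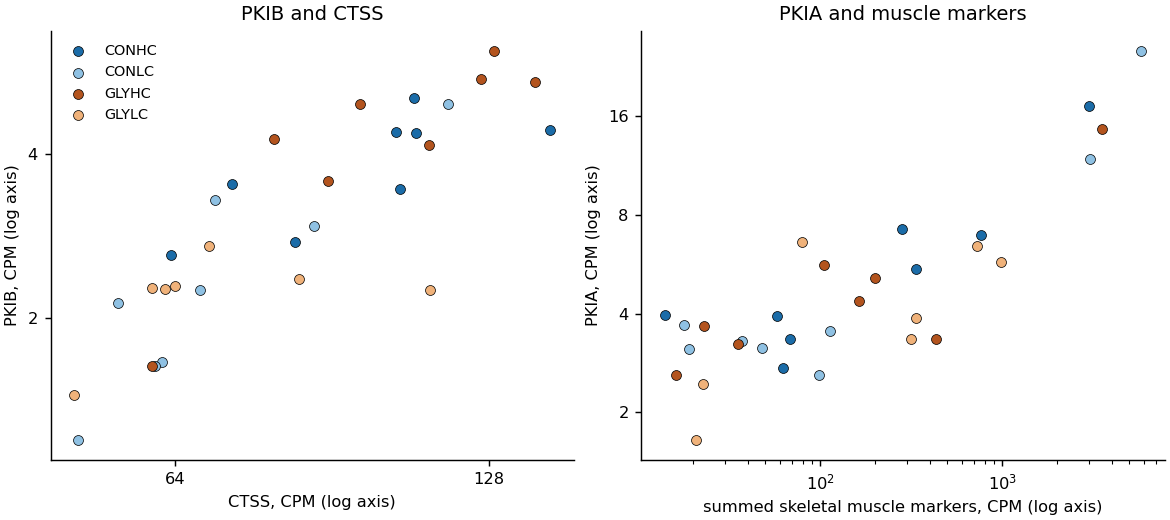
Left, *PKIB* against *CTSS* in CPM on log axes, with 1 point per cow colored by group. Cows with more *CTSS* had more *PKIB* (r = 0.85, n = 31), and *CTSS* was picked for this correlation. Right, *PKIA* against the summed CPM of 15 skeletal muscle markers on log axes; the 4 cows at the upper right have 28.9 to 55.4 times the median muscle signal.

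The catalytic subunits, which carry the kinase activity that the inhibitors block, differed little between groups. *PRKACA* was 18.1 ± 2.1 CPM in CONHC (SD, n = 8), 19.0 ± 2.26 in CONLC (SD, n = 8), 19.1 ± 2.64 in GLYHC (SD, n = 8) and 17.0 ± 2.37 in GLYLC (SD, n = 7). Its log2 fold change with CFP was −0.07 (95% interval −0.26 to 0.13) in CON and 0.17 (95% interval −0.03 to 0.37) in GLY cows. *PRKACB* was 22.6 ± 2.70, 22.2 ± 2.66, 21.9 ± 1.82 and 21.6 ± 4.87 CPM in the same order of groups and numbers of cows, and its log2 fold change was 0.02 in both diets, with 95% intervals of −0.18 to 0.23 in CON and −0.18 to 0.23 in GLY cows. GLYLC cow 544 had the highest *PRKACB* level of all cows at 32.0 CPM.

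Among the regulatory subunits, which hold the kinase inactive until cAMP binds, *PRKAR1A* varied least. It lay between 40.3 and 57.1 CPM in all 31 cows, with means of 50.6 ± 3.50 in CONHC (SD, n = 8), 51.4 ± 3.77 in CONLC (SD, n = 8), 49.9 ± 2.75 in GLYHC (SD, n = 8) and 49.0 ± 6.27 in GLYLC (SD, n = 7). The log2 fold change with CFP was −0.02 in CON cows (95% interval −0.16 to 0.11) and 0.03 in GLY cows (95% interval −0.12 to 0.17). Its SD within groups was 0.12 on the log2 scale, and 7.55% of 2490 genes of like level had a smaller one. For *PKIA* that share was 96.7% and for *PKIB* 78.5%.

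*PRKAR2A*, the widespread type II form, ranged from 13.0 to 26.1 CPM over all cows, and its log2 fold change with CFP was 0.00 (SE 0.13) in CON and 0.15 (SE 0.13) in GLY cows. *PRKAR2B*, the type II form known from fat and brain, ranged from 2.56 to 7.71 CPM, with log2 fold changes of −0.09 (SE 0.21) and 0.04 (SE 0.21). *PRKAR1B*, known from brain, was read 6 to 37 times per cow, at 0.30 to 1.56 CPM, with log2 fold changes of 0.17 (SE 0.24) and 0.35 (SE 0.25). The 95% intervals of all 3 genes held 0 in both diets. Their widest, for *PRKAR1B* in GLY cows, ran from −0.16 to 0.85, so a moderate difference in that gene could have been missed. For *PRKAR2A* they ran from −0.26 to 0.26 in CON and from −0.12 to 0.42 in GLY cows.

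The summed reads on regulatory subunit genes were 1.80 times those on catalytic subunit genes in the median CONHC cow, 1.85 times in CONLC, 1.82 times in GLYHC and 1.84 times in GLYLC, within a range of 1.43 to 2.28 over all cows. This ratio is of reads, not of molecules, since the genes differ in length. *CREB1*, the transcription factor at the end of the pathway, was 2.44 ± 0.59 CPM in CONHC (SD, n = 8), 2.16 ± 0.35 in CONLC (SD, n = 8), 2.40 ± 0.33 in GLYHC (SD, n = 8) and 2.66 ± 0.78 in GLYLC (SD, n = 7), with log2 fold changes with CFP of 0.18 (SE 0.17) in CON and −0.15 (SE 0.17) in GLY cows.

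**Figure D3:**
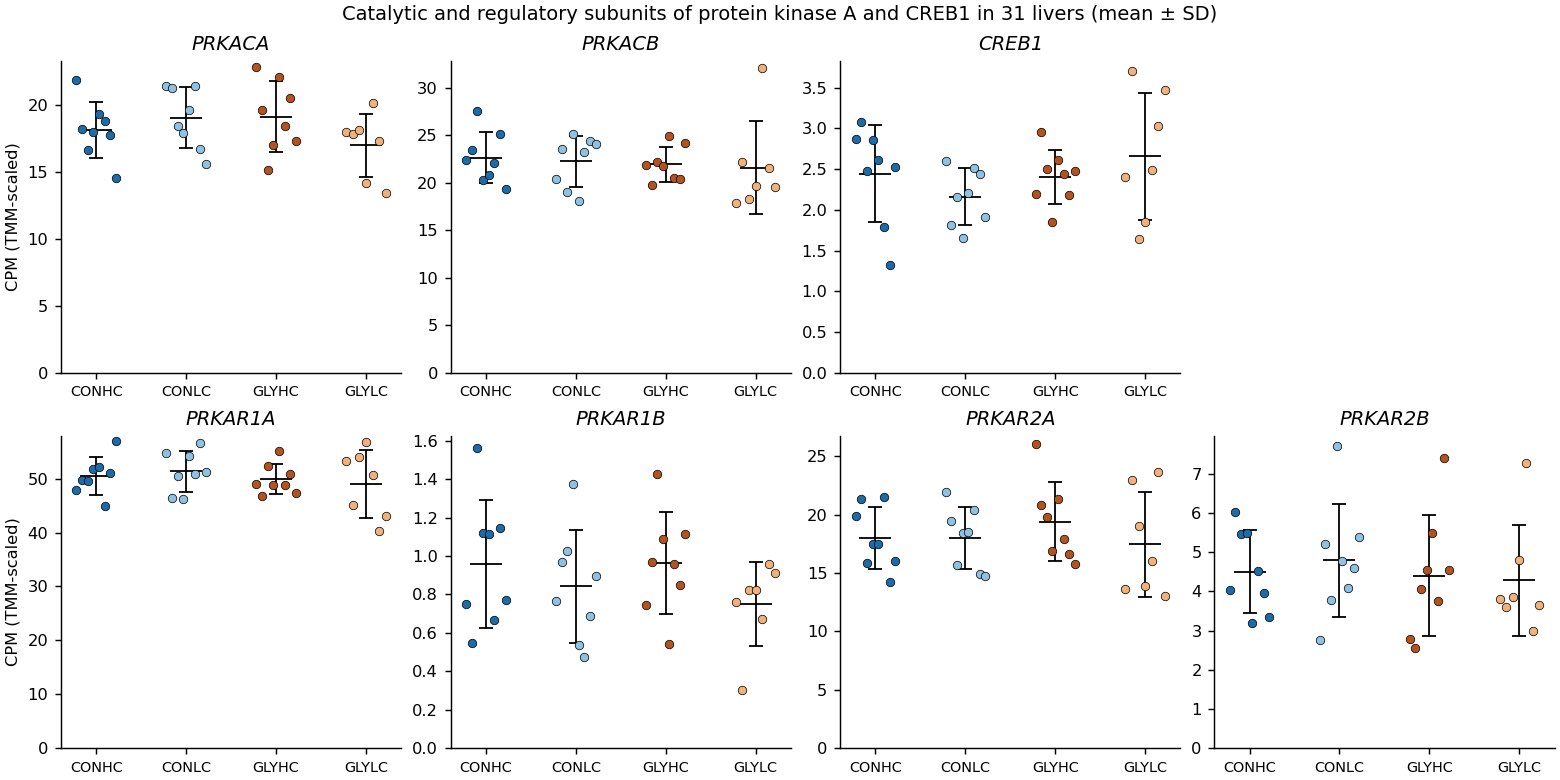
TMM-scaled CPM of the catalytic subunit genes, *CREB1* and the regulatory subunit genes in each of 31 cows (points) by feeding group, with the mean (horizontal line) and SD (error bars). The 4 groups overlap for every gene, and *PRKAR1A* is the tightest, at 40.3 to 57.1 CPM.

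None of the 9 genes other than *PKIB* was called in any of 7 contrasts by edgeR's quasi-likelihood test. *PKIB* is left out of this count because it was chosen from these data. Beside these 0 of 9 calls stand 0% of all genes called in CONHC against CONLC, 0.201% in GLYHC against GLYLC, 0% in GLYHC against CONHC, 0.0628% in GLYLC against CONLC, 0% for the interaction of diet and CFP, 1.45% for HC against LC over all cows and 0% for GLY against CON over all cows, so 0 of 9 is not far from the background in any of them. At an unadjusted p under 0.05, 1 of the 9 passed in a single contrast (*PKIG*, HC against LC over all cows, where 13.7% of all genes did) and 0 of 9 passed in the remaining contrasts. The share of all genes that passed was 5.96% in CONHC against CONLC, 12.5% in GLYHC against GLYLC, 2.92% in GLYHC against CONHC, 5.65% in GLYLC against CONLC, 4.21% for the interaction and 3.92% for GLY against CON over all cows. DESeq2 on all cows called 0 of the 9 as well. In CON cows 4 of the 9 had a positive and 5 a negative log2 fold change with CFP, with a median of −0.02 beside −0.01 over all genes. In GLY cows 7 were positive and 2 negative, with a median of 0.04 beside −0.01 over all genes. Correlations of the 9 genes with *PKIB* over the 31 cows ran from −0.32 (*PKIG*) to 0.28 (*PKIA*).

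**Figure D4:**
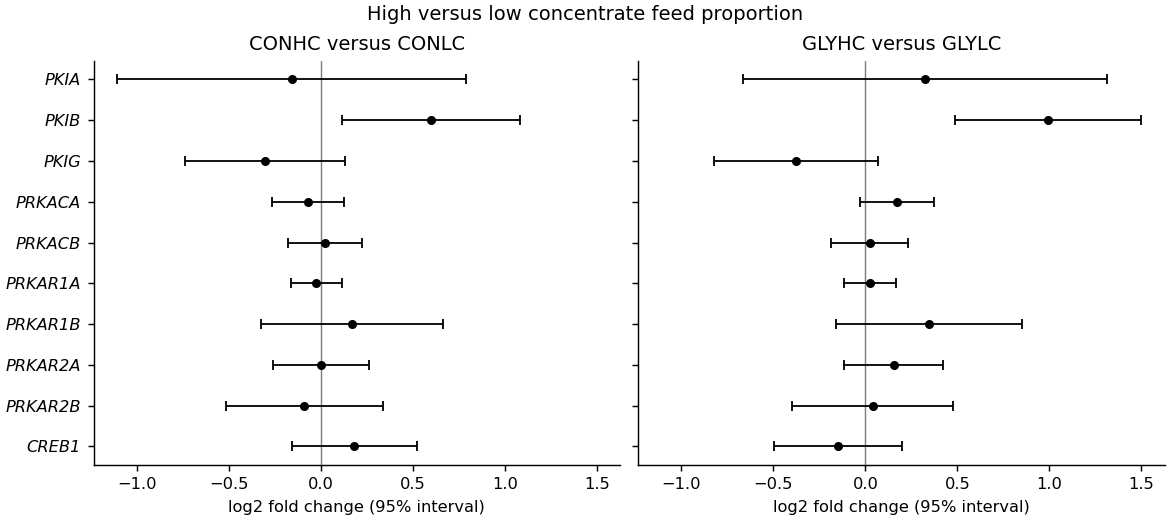
Log2 fold change of HC against LC (points) with 95% intervals (bars) for the 10 genes, in CON cows (left) and GLY cows (right). In the CON panel the interval of *PKIB* runs from 0.11 to 1.08 and those of the other 9 genes hold 0. A higher *PKIB* level in HC over all cows, the CON cows included, was known when the gene was chosen. Its place in the CON panel is therefore a description and no independent finding. *PKIB* was chosen from the GLY comparison, so its place in that panel is no finding; the intervals of the other 9 genes hold 0 there too.

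Other genes of cAMP signaling were read from 8 lists of 88 genes, of which 81 had enough reads to be tested (*GNAS* on more than 1 line of the matrix, giving 82 tests). *PDE8B*, *AKAP13* and *SIK1* were not matched by symbol, and *GLP1R*, *ADCY8*, *PDE11A* and *AKAP3* had too few reads. Over all cows 3 of 82 tests (3.66%, beside 1.45% of all genes) were called between HC and LC, 2 higher (beside 0.679% of all genes) and 1 lower in HC (beside 0.773%). At an unadjusted p under 0.05 there were 14 (17.1%, beside 13.7%). In CONHC against CONLC and GLYHC against GLYLC 0 of 82 were called, and at an unadjusted p under 0.05 there were 8 (9.76%, beside 5.96% of all genes) and 9 (11%, beside 12.5%). For the glyphosate contrasts GLYHC against CONHC, GLYLC against CONLC and GLY against CON over all cows, 0 of 82 were called, with 2 (2.44%), 2 (2.44%) and 4 (4.88%) at an unadjusted p under 0.05.

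Of 14 phosphodiesterases tested, which break cAMP down, 1 was called between HC and LC over all cows (7.14%, beside 1.45% of all genes). At an unadjusted p under 0.05 there were 4 (28.6%, beside 13.7%), 2 higher and 2 lower in HC. The called gene, *PDE4D*, was higher in HC cows and was read 5 to 59 times per cow. It was 1.15 to 1.81 CPM in CONHC (median 1.41), 0.39 to 1.34 in CONLC (median 0.77), 0.93 to 2.19 in GLYHC (median 1.32) and 0.72 to 1.38 in GLYLC (median 0.96). Within both diets the medians stood in the same order while the ranges overlapped. The log2 fold change over all cows was 0.63 (SE 0.16, adjusted p = 0.0657), with 0.74 (SE 0.22) within CON and 0.50 (SE 0.22) within GLY cows.

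Of the adenylyl cyclases, which make cAMP, 1 of 9 tested was called. *ADCY6*, a form inhibited by calcium, was 21.3 to 28.0 CPM in CONHC (median 23.7), 24.4 to 30 in CONLC (median 27.4), 17.5 to 28.6 in GLYHC (median 25.0) and 24.2 to 32.4 in GLYLC (median 28.5). It was lower in HC over all cows, with a log2 fold change of −0.20 (SE 0.06, adjusted p = 0.0918), and the values within CON and GLY cows were −0.18 (SE 0.08) and −0.22 (SE 0.08). *ADCY10*, the soluble cyclase, was the other cyclase with a small unadjusted p in CON cows (log2 fold change −1.02, SE 0.37, adjusted p = 0.686). In GLY cows its mean was 1.09 CPM in GLYHC and 1.02 CPM in GLYLC, and it was read 2 to 53 times per cow.

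*PKLR*, the liver pyruvate kinase that protein kinase A phosphorylates and inhibits, was the third called gene and the single one of 10 metabolic substrates. Its level was 95.5 to 137.4 CPM in CONHC (median 117.9), 74.2 to 99.8 in CONLC (median 90.5), 82.7 to 114.6 in GLYHC (median 99.2) and 39.8 to 119.5 in GLYLC (median 78.6). It was higher in HC over all cows, with a log2 fold change of 0.33 (SE 0.09, adjusted p = 0.0948), and the values were 0.37 (SE 0.13) in CON and 0.29 (SE 0.14) in GLY cows. Without GLYLC cow 912, the cow with intestinal transcripts, the GLY value was 0.17. All 3 calls lay near the threshold: leaving out 1 cow at a time lost the call of *ADCY6* in 23 of 31 cases, that of *PKLR* in 22 and that of *PDE4D* in 1, without GLYHC cow 32 (adjusted p = 0.110).

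**Figure D5:**
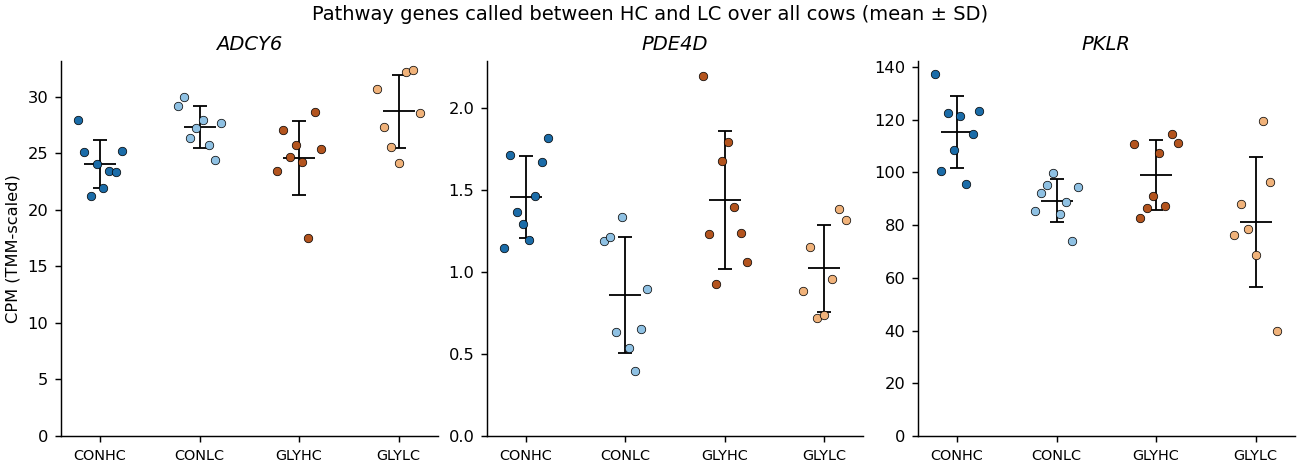
TMM-scaled CPM of *ADCY6*, *PDE4D* and *PKLR* in each of 31 cows (points) by feeding group, with the mean (horizontal line) and SD (error bars). *PDE4D* and *PKLR* means are higher, and *ADCY6* means lower, in HC than in LC groups of the same diet, with overlapping cows.

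The remaining lists held no call. Of the receptors and G proteins, the glucagon receptor *GCGR* had the smallest unadjusted p in CON cows, at 163.8 ± 8.19 CPM in CONHC (SD, n = 8) and 190.9 ± 12.7 in CONLC (SD, n = 8), a log2 fold change of −0.22 (SE 0.09, adjusted p = 0.769); in GLY cows it was 0.08 (SE 0.10). The inhibitory G protein subunit *GNAI3* had −0.09 (SE 0.06) in CON and −0.15 (SE 0.07) in GLY cows. Of 13 anchoring proteins, which tether the kinase to places in the cell, *AKAP12* had −0.71 (SE 0.33) in CON and −0.60 (SE 0.33) in GLY cows, and *AKAP5* −0.01 (SE 0.25) and 0.53 (SE 0.26). The highest *AKAP12* levels were 6.05 CPM in CONLC, in muscle-rich cow 103, and 6.90 CPM in GLYLC, in cow 912 with intestinal transcripts. The medians of those groups were 2.23 and 1.95 CPM. Of 5 other cAMP receptors, *RAPGEF3*, an exchange factor for Rap, had −0.58 (SE 0.25) in CON and −0.10 (SE 0.25) in GLY cows. *POPDC2* had −2.61 over all cows, which rested on few reads: GLYLC cow 912 had 2.19 CPM, no cow of the other groups exceeded 0.55 CPM, and the median of each group was 0.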

How the data were processed

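Total RNA of liver biopsies was sequenced from poly(A)-selected stranded libraries. Per the study's methods and processing notes, reads were trimmed with Trim Galore at Phred 20, aligned with HISAT2 2.1.0 to the bovine genome UMD3.1 and counted per gene with HTSeq 0.8.0; the strand setting is not given in the sources used here, so reads of overlapping antisense genes cannot be told apart. The authors deposited raw counts per gene, used here, and a DESeq2-normalized table, not used. Groups came from the sample labels. Genes with at least 20 reads over all cows were fitted with edgeR 4.0.16 (TMM, quasi-likelihood test, R 4.3.3) on all 31 cows, with 4 group means or additive diet and CFP terms, and p-values were adjusted by Benjamini-Hochberg over 15916 genes. Calls required p under 0.05 and adjusted p under 0.1. CPM values are TMM-scaled; log2 CPM used a prior count of 2. The scripts were tested on simulated data. Alternatives were RLE normalization, other count filters, a prior count of 0.5, DESeq2 1.42.0, fits on 2 groups, leaving out each cow, and leaving out cows whose muscle markers exceeded 10 times the median. Named pathway genes were those called in any contrast and, per list, that with the smallest p in CONHC against CONLC, GLYHC against GLYLC or HC against LC. The members, gene lists and rules were chosen with earlier results of these data known. No coordinates or sequences are given because no reference of the files' build was used.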

Additional observations from a re-analysis of the deposited data

Results flagged for a closer look

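Within 40 sets of 7 or 8 cows (10 genes in 4 groups), 5 single cows lay far from the rest of their group by Dixon's criterion at the 95% level, applied to log2 CPM, which chance alone meets in about 1 of 20 sets. *PKIA* in GLYHC cow 127 was 14.6 CPM, with the next cow at 5.64 CPM; it is a cow with strong muscle transcripts. *PKIB* in GLYHC cow 37 was 1.63 CPM, with the next cow at 3.57 CPM. *PKIB* in GLYLC cow 42 was 1.44 CPM, with the next cow at 2.25 CPM. *PRKACB* in GLYLC cow 544 was 32.0 CPM, with the next cow at 22.1 CPM. *PRKAR1B* in GLYLC cow 102 was 0.30 CPM, with the next cow at 0.67 CPM.
On CPM without the log, an alternative chosen after seeing the data, 6 cows met the criterion: 3 of those above (*PKIA* in GLYHC cow 127, *PKIB* in GLYLC cow 42 and *PRKACB* in GLYLC cow 544), *PKIA* in CONHC cow 123 (17.2 CPM) and CONLC cow 166 (25.4 CPM), and *PRKAR2B* in GLYLC cow 544 (7.27 CPM).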

How the results depend on the processing

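The count of 0 calls among the 9 genes besides *PKIB* held in all 7 contrasts under RLE normalization and other filters on low counts. It also held with DESeq2 on all cows and with each left-out cow. In the 4 contrasts between 2 groups it was 0 too when only those groups were fitted. With DESeq2 on only CONHC and CONLC, however, just *PRKACB* and *PRKAR1A* of the 9 were given an adjusted p. The others could not be called in that fit, so its 0 says nothing about them. The *PKIB* difference between CON groups ranged from 0.55 to 0.84 log2 CPM with 1 of the 16 CON cows left out (exact permutation p from 0.0028 to 0.0364), and was 0.63 (p = 0.0565) without the 4 muscle-rich cows, an alternative chosen after seeing the data with fewer cows per group. The 3 pathway genes called between HC and LC over all cows became 1 without a filter on low counts (*ADCY6* and *PKLR* at adjusted p = 0.107). They became 1 without the muscle-rich cows, and 0 to 3 with 1 cow left out, with 0 without GLYHC cow 32. The number of all genes called moved as well. It was 231 of 15916 in the main fit and 44 without the muscle-rich cows. With 1 cow left out it was 83 to 404, with 83 without GLYHC cow 32. The total without a filter is not given here, and the cause was not tested. In CONHC against CONLC, 0 pathway genes became 2 with DESeq2 on only those 2 groups (*PKLR*, adjusted p = 0.00324, and *GCGR*, adjusted p = 0.00529), where DESeq2 gave *PKIB* no adjusted p. The share of all genes called in that fit is not given here. No direction of a call reversed. No paired analysis was possible because each cow has a number of its own and no number is shared between groups. *PRKAR1B*, *CREB1*, *PKIB* and *PKIG* had as few as 6 to 27 reads in a cow, which limits their precision.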

Other observations

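Hepatic genes that cAMP is known to induce gave no call among 10 tested. *PPARGC1A*, a coactivator of gluconeogenic genes, had a log2 fold change of HC against LC of −0.32 (SE 0.17) in CON and 0.31 (SE 0.17) in GLY cows, a difference of 0.63 (SE 0.24, unadjusted p = 0.01297, adjusted p = 0.999 by edgeR). *NR4A1*, an immediate early nuclear receptor, had −0.69 (SE 0.35) and 0.62 (SE 0.36), a difference of 1.32 (SE 0.50, adjusted p = 0.999). Its level in CONLC ranged from 0.78 to 4.68 CPM, with the highest value in muscle-rich cow 166. Over the pathway lists 6 of 82 interaction tests (7.32%, beside 4.21% of all genes) had an unadjusted p under 0.05, and all 6 were positive. How the 4.21% of all genes split by direction is not given here, so the shared sign is not read as a result about the lists. *IGFBP1*, a fasting-induced binding protein of insulin-like growth factors, had a log2 fold change of −0.56 (SE 0.24, adjusted p = 0.278) for HC against LC over all cows, with cows from 75.0 to 742.4 CPM. The kinase *SIK3* had −0.03 (SE 0.13) in CON and 0.37 (SE 0.14) in GLY cows, and *PHKA2*, a subunit of phosphorylase kinase, had 0.04 (SE 0.14) and 0.34 (SE 0.15). GLYLC cow 912, with intestinal transcripts, was the lowest of its group for *SIK3* and *PHKA2*. The coactivator *CREBBP* had 0.09 (SE 0.10) and 0.00 (SE 0.10).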
